A study of Mus musculus with 111 samples.

Results

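Gene expression of wild-type (WT) striatal astrocytes was compared between mice aged 12 months and mice aged 6 months. The comparison took every sample titled as WT, GLT1-sorted and of one of these ages, which gave 4 samples at 12 months (numbers 34, 35, 36 and 37) and 4 at 6 months (numbers 22, 23, 24 and 25), 8 of the 111 samples of the series. GLT1 is the glutamate transporter of the astrocyte surface, encoded by Slc1a2, and cells were kept that carried it and lacked CD11b, a surface protein of microglia. The mice were the WT littermates of zQ175 mice, a Huntington's disease model with an expanded repeat in its own Htt gene, and they carried no disease allele themselves. Striata were dissected without the subventricular zone, and those of the WT mice of a litter were pooled before sorting, so that a sample is a pool and not 1 animal, and p-values measure the spread between pools. WT microglia, sorted on CD11b, and a WT negative fraction of cells with neither surface protein had 4 samples each at each age and the same sample numbers, which the labels do not tie to pools. zQ175 astrocytes at 12 and 6 months (4 samples each) were set beside the WT astrocytes. WT astrocytes aged 6 and 12 weeks (5 samples each), which are controls of another Huntington's disease line, R6/2, served as a description only.

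Astrocytes clear glutamate and potassium from the space around synapses, supply neurons with metabolites and cholesterol, and couple to one another through gap junctions. With injury, disease and advanced age they can take on a reactive state, in which the filament protein GFAP, interferon-stimulated genes and complement genes are known to rise. Ages of 6 and 12 months in mice cover mature adulthood and middle age, before the ages at which most work on old brains is done.

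RNA was hybridised to Affymetrix mouse arrays, on which a probe set is a group of short probes that reports 1 transcript, and each level below is a log2 signal after normalization by the authors. A gene was represented by the probe set of highest mean, for 18194 genes. The 8 arrays had medians of 6.285 to 6.484, which averaged 6.44 at 12 months and 6.34 at 6 months. Their correlation r was 0.982 to 0.993 among the 12-month samples and 0.979 to 0.990 among the 6-month samples. Between the ages r was 0.965 to 0.991. Array signal carries no read depth, and the number of arrays limits the precision. The sort was borne out by the markers: 21 astrocyte markers averaged 12.30 in WT astrocytes, against 8.03 in WT microglia and 9.31 in the WT negative fraction, over 8 samples each. Homeostatic microglia markers averaged 5.68 in WT astrocytes, against 12.70 in WT microglia and 6.18 in the WT negative fraction, and Itgam (which encodes CD11b) and Tmem119 lay below the level limit for testing, at log2 5.44, at both ages. Oligodendrocyte markers were high, with a mean of 12.46 in WT astrocytes against 10.64 in WT microglia and 11.94 in the WT negative fraction, so oligodendrocyte transcripts were also present in the GLT1 sort. In a bulk sample, fewer cells of a type and less RNA per cell cannot be told apart.

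The change in named genes between these ages was modest in size, and more of them were called lower than higher. Of 12380 genes tested with limma, 494 (3.99%) were called at an adjusted p below 0.05, 122 higher (0.985%) and 372 lower (3.0%) at 12 months. Each array centred on its own median gave 87 higher and 984 lower, and probe sets without a gene symbol, described further on, went mostly the other way. The median log2 difference was 0.54 among the genes called higher and -0.53 among those called lower, against -0.047 over all genes tested. Only 37 called genes changed more than 2-fold, 14 higher and 23 lower. The ages (4 samples each) did not overlap in 110 of the 122 genes called higher and 332 of the 372 called lower. Over all genes tested the share was 10.9% (3.18% higher and 7.72% lower). The calls rest on these same samples, so the counts describe the called genes and do not test them. How many genes passed depended on single samples: leaving 1 out gave 110, 213, 340 and 536 called genes without 12-month samples 34, 35, 36 and 37, and 329, 70, 83 and 1016 without 6-month samples 22, 23, 24 and 25. The call was kept in all 8 of these fits by 60 genes, 19 higher and 41 lower, and many of the genes described below are among them. A fit of the 8 WT samples alone, with no zQ175 samples to share the estimate of spread, called 1 gene (Gm15666), with 2100 at an unadjusted p below 0.05.

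**Figure D1:**
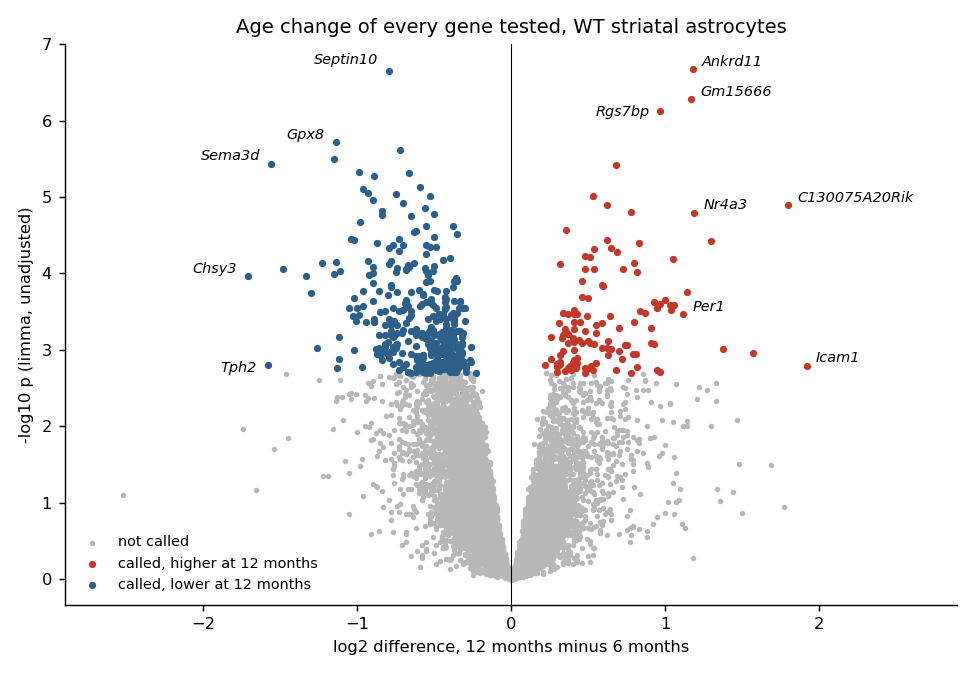
Each point is 1 of the 12380 genes tested in WT astrocytes, with the log2 difference (12 months minus 6 months) on the x axis and -log10 of the unadjusted limma p on the y axis. The 122 genes called higher are red, the 372 called lower are blue, and the named genes include Ankrd11 and Septin10, which have the smallest p in their direction.

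The array's own controls also differed between the ages. Hybridisation controls, transcripts of set amount that are added to every array, averaged 12.07 ± 0.07 (range 12.00 to 12.16) at 12 months and 11.62 ± 0.07 (11.55 to 11.71) at 6 months (SD, n = 4 each), a difference of 0.46 with an exact two-sided permutation p of 0.0286, the smallest that 70 relabellings allow, and 0.0572 after adjustment over 6 such measures. The same difference was seen in the zQ175 astrocytes, at 12.05 ± 0.13 at 12 months and 11.64 ± 0.06 at 6 months. The probe set for 18S ribosomal RNA was 1.02 higher at 12 months (exact permutation p = 0.0286), while added poly-A controls (-0.29, p = 0.457) and the 3′ minus 5′ signals of Actb (-0.19, p = 0.20) and Gapdh (0.02, p = 0.914) missed the threshold in exact permutation tests. The mean of the Y-linked genes, the last of the 6 measures, was 9.01 ± 0.11 (8.88 to 9.11) at 12 months and 9.37 ± 0.12 (9.22 to 9.47) at 6 months (exact permutation p = 0.0286), and limma called 1 gene with it as a covariate. With the hybridisation mean as a covariate limma called 0 genes, and 961 had an unadjusted p below 0.05. Neither covariate overlapped between the ages, so a fit with it has little age change left to test. The loss of calls therefore does not show what the controls account for. No scan date is given in the sources used here, so age and the handling of the arrays cannot be told apart in any result below.

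Among the genes that rose, the smallest p belonged to Ankrd11, which encodes a chromatin regulator that binds histone deacetylases and is mutated in a human developmental syndrome. Ankrd11 stood at 9.76, 10, 10.40 and 9.84 in the 12-month samples, against 8.83, 8.61, 8.90 and 8.96 in the 6-month samples. Every 12-month sample lay above every 6-month sample, and the log2 difference was 1.18 ± 0.13 (SE), which is 2.26-fold, with an adjusted p of 0.00138. Ankrd11 has 7 probe sets, and the other 6 differed by 0.40, -0.36, 0.94, 0.54, 0.67 and -0.02. Gm15666, a predicted gene of unassigned function, had 7.71, 7.45, 7.61 and 7.47 at 12 months, against 6.57, 6.25, 6.31 and 6.42 at 6 months. The ages were well separated, with a log2 difference of 1.17 ± 0.14 and an adjusted p of 0.00218. Rgs7bp encodes an anchor that brings RGS7-family regulators of G protein signalling to the membrane, and its values were 8.79, 8.50, 8.44 and 8.35 at 12 months, against 7.66, 7.53, 7.55 and 7.46 at 6 months. That was a rise of 0.97 ± 0.12 (adjusted p = 0.00229) with no overlap. Ube3a, the ubiquitin ligase of Angelman syndrome, rose by a smaller amount but evenly, with 11.02, 11.07, 11.04 and 10.98 at 12 months, against 10.67, 10.42, 10.47 and 10.43 at 6 months. The difference of Ube3a was 0.53 ± 0.08 (adjusted p = 0.00669), while its other 5 probe sets lay between -0.21 and 0.23.

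Other genes of small p that were higher at 12 months and kept the call without any 1 WT sample were Ccar1, a coactivator of nuclear receptors (0.68), Zzef1 (0.62), Ifngr2, which encodes a chain of the interferon gamma receptor (0.78), Znhit1, a subunit of a chromatin remodelling complex (0.36), and Son, which encodes a splicing factor of nuclear speckles (0.62). The reported probe set of Son was 1 of 7, of which 2 were higher and 5 lower at 12 months, so this gene's direction depends on the probe set. Malat1, a long noncoding RNA of the same speckles that was picked after its values were seen, had 13.19, 13.15, 13.07 and 13.11 at 12 months, against 12.87, 12.43, 12.61 and 12.77 at 6 months. The rise of 0.46 ± 0.09 (adjusted p = 0.0211, kept in 5 of 8) went the same way in all 7 Malat1 probe sets, from 0.29 to 1.46.

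The largest rises among called genes were more variable. Icam1, the adhesion molecule that binds leukocyte integrins and a target of NF-kB, had 8.98, 8.20, 7.86 and 7.19 at 12 months, against 6.89, 5.92, 4.90 and 6.86 at 6 months. Its difference of 1.92 ± 0.50 (adjusted p = 0.0456), which is 3.78-fold, had no overlap but a wide spread in both groups, and it was called in 3 of the 8 fits that left out a sample. C130075A20Rik rose by 1.80 ± 0.28 (adjusted p = 0.00723), at 9.28 ± 0.35 and 7.48 ± 0.58 for 12 and 6 months (SD, n = 4 each). Usp53, a deubiquitinase-like protein of cell junctions, differed by 1.57 in the reported probe set and by 0.73 and -0.16 in its others, and kept the call in 3 of 8 fits. Gm13306 (1.38, kept in 2 of 8) and 6430590A07Rik (1.30, kept in 8 of 8) completed the large rises outside the genes of the next paragraph.

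Nr4a3 and Per1, genes that cells switch on within an hour or so of a stimulus, both rose, and they sit on different lists of stimulus-responsive genes. Nr4a3 encodes an orphan nuclear receptor of the immediate early class, and Per1 encodes a repressor of the circadian clock that is also induced by glucocorticoids and by cyclic AMP. Their promoters are shown because cyclic AMP acts through CREB, whose site TGACGTCA has the core TGACG. Sequences are those of RefSeq (build GRCm38.p6), run from 250 bases before the transcript start to 50 after it on the plus strand, and have TGACG or its reverse complement CGTCA in capitals.
Nr4a3, chr4:48045055-48045354: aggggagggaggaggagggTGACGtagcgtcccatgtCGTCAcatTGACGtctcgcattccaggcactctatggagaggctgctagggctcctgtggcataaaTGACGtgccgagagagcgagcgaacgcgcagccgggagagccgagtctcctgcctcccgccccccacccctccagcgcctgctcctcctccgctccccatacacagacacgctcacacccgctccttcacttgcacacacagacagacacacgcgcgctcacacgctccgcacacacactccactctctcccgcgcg
Per1, first start, chr11:69098699-69098998: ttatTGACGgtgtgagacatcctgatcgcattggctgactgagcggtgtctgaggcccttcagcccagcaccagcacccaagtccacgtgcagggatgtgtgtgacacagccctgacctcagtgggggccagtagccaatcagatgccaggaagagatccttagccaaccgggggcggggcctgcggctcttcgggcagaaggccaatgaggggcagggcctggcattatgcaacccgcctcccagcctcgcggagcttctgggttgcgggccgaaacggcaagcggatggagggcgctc
Per1, second start, chr11:69099902-69100201: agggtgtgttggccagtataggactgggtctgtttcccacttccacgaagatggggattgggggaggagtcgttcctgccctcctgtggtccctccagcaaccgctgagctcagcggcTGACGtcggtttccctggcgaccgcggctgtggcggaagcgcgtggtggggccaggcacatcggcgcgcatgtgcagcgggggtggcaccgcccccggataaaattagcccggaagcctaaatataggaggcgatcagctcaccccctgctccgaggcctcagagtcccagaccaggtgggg
The Nr4a3 window holds 4 copies of TGACG, counting both strands, and each Per1 window holds 1. Over all 32851 promoter windows of this length 20.8% held at least 1 copy and 0.231% held 4 or more. The full site TGACGTCA, in 1.79% of windows, was in none of the 3, and CACGTG, the E-box bound by the clock activators and present in 7.15% of windows, was in the first Per1 window alone. A match of letters is a description and was not tested as a binding site.

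Nr4a3 had 10.75, 9.47, 10.08 and 10.08 in the 12-month samples, against 8.89, 8.99, 8.84 and 8.90 in the 6-month samples. The 6-month values were tight and all lay below the 12-month values, which gave a log2 difference of 1.19 ± 0.19 (adjusted p = 0.00755) that kept its call in all 8 fits without 1 sample. Per1 had 9.43, 9.17, 10.03 and 9.47 at 12 months, against 8.20, 8.36, 8.03 and 9.0 at 6 months. Sample 25 at 6 months came close to the 12-month range, and the difference of 1.12 ± 0.24 (adjusted p = 0.0246) kept its call in 3 of those 8 fits. No other gene of these lists was called. Of 22 immediate early genes tested, Nr4a3 was called and the median difference was -0.04. Of 20 circadian clock genes Per1 was called (median 0.11), and of 17 glucocorticoid-responsive genes again Per1 (median 0.14).

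**Figure D2:**
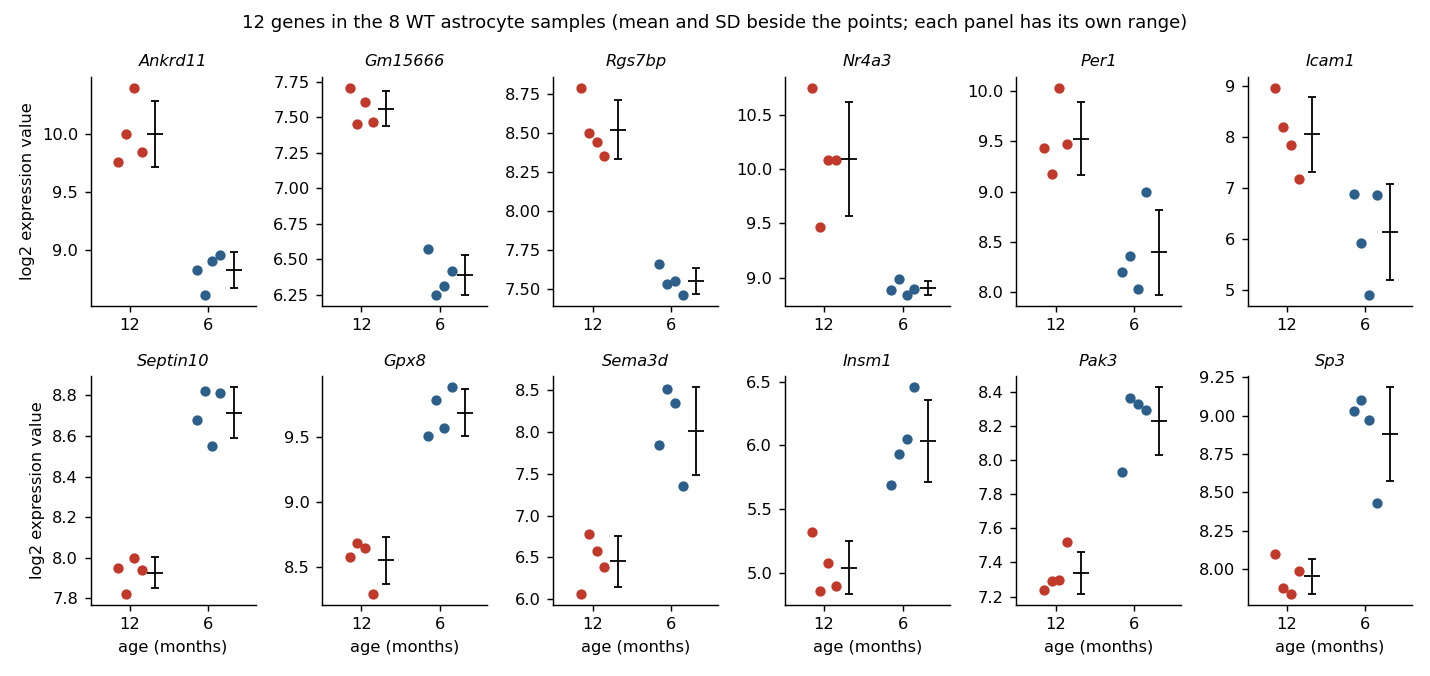
Log2 values (y axis, a separate range in each panel) of 12 genes in the WT astrocyte samples at 12 months (red, left) and 6 months (blue, right), with 4 samples each and the mean and SD beside them. None of the 12 genes has overlapping ages, and the distance between ages is smallest against the spread in Per1 and Icam1.

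The genes that fell were led by Septin10, a member of the septin family of filament-forming GTPases. Septin10 values were 7.95, 7.82, 8.0 and 7.94 at 12 months, against 8.68, 8.82, 8.55 and 8.81 at 6 months. The groups were clearly apart, with a difference of -0.79 ± 0.09 and an adjusted p of 0.00138. Gpx8, a peroxidase of the endoplasmic reticulum, had 8.58, 8.69, 8.65 and 8.29 at 12 months, against 9.51, 9.79, 9.57 and 9.89 at 6 months. It fell by 1.14 on the log2 scale (SE 0.15, adjusted p = 0.00475) with no overlap. Sema3d, a secreted semaphorin that guides axons, was at 6.06, 6.78, 6.58 and 6.39 at 12 months, against 7.84, 8.51, 8.34 and 7.35 at 6 months. Its difference of -1.56 ± 0.22 (adjusted p = 0.00524) was the largest fall among the genes that kept their call in every fit without 1 sample. Insm1, a zinc finger factor of neuroendocrine and neural progenitor cells, had 5.32, 4.86, 5.08 and 4.90 at 12 months, against 5.69, 5.93, 6.05 and 6.46 at 6 months. The 12-month values of Insm1 are at or under the level limit of 5.44, so the fall of 0.99 (SE 0.14, adjusted p = 0.00550) ends at that limit.

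Pak3, a kinase that acts on the actin cytoskeleton below Rac and Cdc42, had 7.24, 7.29, 7.30 and 7.52 at 12 months, against 7.93, 8.36, 8.33 and 8.29 at 6 months. Sp3, a transcription factor of GC-rich promoters, had 8.10, 7.88, 7.84 and 7.99 at 12 months, against 9.03, 9.10, 8.97 and 8.43 at 6 months. Neither gene overlapped between the ages, and the differences were -0.89 ± 0.13 for Pak3 (adjusted p = 0.00550) and -0.93 ± 0.14 for Sp3 (adjusted p = 0.00669). The remaining genes of smallest p that fell were Myef2, a repressor of the myelin basic protein gene (-0.72), Zfp39, a zinc finger protein (-1.15), Mettl15, a methyltransferase of mitochondrial ribosomal RNA (-0.66), Rnft1, a ubiquitin ligase of the endoplasmic reticulum (-0.59), Arhgef3 (-0.96), and Krcc1 (-0.75). All 6 kept the call without any 1 WT sample. All 3 probe sets of Myef2 fell together (-0.72, -0.63 and -0.60), as did both of Mettl15 (-0.66 and -0.74). Others disagreed in size or sign, with -0.08 in the other Septin10 probe set, -0.02 in that of Ifngr2, and 0.41 and -0.20 in those of Rgs7bp. Zzef1 had 0.02 and 0.33 in its others. Above the level limit, the other probe set of Ccar1 had 0.09, and those of Pak3 had -0.42 and 0.09.

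The larger falls were often of genes near the level limit. Chsy3, a chondroitin sulfate synthase, had a mean of 4.39 ± 0.24 at 12 months, below the level limit of 5.44, against 6.10 ± 0.74 at 6 months (SD, n = 4 each). It was tested because its mean over all 16 astrocyte arrays passed the limit, and the call (adjusted p = 0.0148) gives a direction more than a size. Tph2, the serotonin-making enzyme of neurons, had 4.95 ± 0.80 at 12 months, also below that limit, against 6.53 ± 0.70 at 6 months. Its groups overlapped, and its call (adjusted p = 0.0453) was kept in 2 of the 7 fits without 1 sample in which it was tested. Ect2, an exchange factor of cytokinesis (-1.48), Tnfrsf13c, the receptor for the B cell factor BAFF (-1.33), Asns, which makes asparagine (-1.30), Srsf12, a splicing factor (-1.26, with overlap and kept in 2 of 8) and Lurap1l (-1.23) followed. Both Asns probe sets went down, by -1.30 and -1.43. Among the 60 genes that kept their call, 4 were picked after their values were seen for their known roles. Prkaa1, a catalytic subunit of the energy sensor AMPK, fell by 0.70, Pla2g4a, the phospholipase that frees arachidonic acid, by 0.98, and Cep290, a protein of the base of cilia, by 0.90, while Nfix, a transcription factor of glial development, rose by 0.65.

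The genes that define astrocytes did not pass the test. Of 21 astrocyte markers 0 were called, while 16 had a higher mean at 12 months and the median difference was 0.13, with the mean of the list at 12.35 ± 0.03 (12.32 to 12.37) at 12 months and 12.25 ± 0.02 (12.23 to 12.27) at 6 months. The list means of the ages did not overlap, although the step is 0.1 of a log2 unit. Slc1a2 (0.18, adjusted p = 0.131), Aldh1l1 (0.30, adjusted p = 0.128), Gja1, the main gap junction protein (0.17, adjusted p = 0.0905), Slc1a3 (-0.07) and Aqp4, the water channel of astrocyte endfeet (-0.04), did not pass. Their other probe sets, which the reported fit did not use, had 0.15, 0.43, 0.63 and 0.89 for Slc1a2, and 0.73 and -0.02 for Aqp4. Those of Slc1a3 had -0.09, -0.06, 0.57, 0.17 and 0.65, that of Aldh1l1 had 0.14, and those of Gja1 had 0.09 to 0.29. How flat these genes look thus depends on the probe set. Aldh1a1, an enzyme of retinoic acid synthesis, had the smallest p of the list and also missed (-0.36, adjusted p = 0.0582).

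Gfap had 9.20, 9.09, 9.66 and 9.37 at 12 months, against 8.64, 8.73, 8.58 and 9.47 at 6 months. Sample 25 at 6 months lay above 3 of the 4 samples at 12 months, and the difference of 0.47 ± 0.17 was not called by limma (adjusted p = 0.126). Its other probe sets had 0.21 and 0.14. In zQ175 astrocytes Gfap was 9.46 ± 0.20 at 12 months and 8.61 ± 0.05 at 6 months (SD, n = 4 each). That difference of 0.84 was called (adjusted p = 0.0153). The age change of Gfap was not called different between the genotypes by limma (0.37 ± 0.25, SE, adjusted p = 0.972). No reactive astrocyte gene was called in WT among 21 tested (median 0.14), and Cd44, the hyaluronan receptor, had the smallest p at -0.89 (adjusted p = 0.0668). Complement genes (0 of 4, median -0.02), MHC class I antigen presentation (0 of 12, median 0.12, smallest p in Psme1 at 0.31) and interferon-stimulated genes (0 of 16, median 0.16, smallest p in Ifi27 at 0.32) held no called gene. Icam1 was the called member of 7 inflammatory cytokines and NF-kB targets, whose median was 0.01.

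Markers of other cells mostly did not pass either. Oligodendrocyte markers were lower as a list, with 0 of 12 called, 11 below 0, 9 at an unadjusted p below 0.05 and a median of -0.27. The list averaged 12.36 ± 0.18 (12.11 to 12.53) at 12 months and 12.56 ± 0.07 (12.47 to 12.61) at 6 months, and Mog, a myelin protein, had -0.36 (adjusted p = 0.0551). With this list mean as a covariate limma called 9 genes in place of 494, and its part in the result was not tested further. The ependymal and subventricular zone markers had the largest median of any list, 0.79 over 9 genes with 0 called. Their mean was 7.89 ± 0.49 (7.49 to 8.52) at 12 months and 7.28 ± 0.91 (6.53 to 8.61) at 6 months, so the ages overlapped. Tmem212, a gene of ciliated cells named after its value was seen, reached 1.77 with an adjusted p of 0.350, and the smallest p of the list was that of Dlx2 (-0.40).

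Microglia markers (0 of 8 called, median 0.02, P2ry12 at -0.51), oligodendrocyte precursor markers (0 of 6, median -0.10, Cacng4 at 0.27), endothelial and mural markers (0 of 17, median 0.00, Kdr at -0.28), medium spiny neuron genes (0 of 9, median -0.13, Pde10a at -0.54) and border macrophage and blood cell markers (0 of 2, median -0.07, Cd3e at -0.26) had no call. Of 10 pan-neuronal markers, Eno2, a glycolytic enzyme, rose by 0.35 (adjusted p = 0.0301, kept in 2 of 8) and Gap43, a growth cone protein, fell by 0.43 (adjusted p = 0.0216, kept in 5 of 8). The list's median was 0.03, and its mean was 7.12 ± 0.03 at 12 months and 7.11 ± 0.03 at 6 months.

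The metabolic and stress lists had 1 call or none each, and with 3.99% called over all genes a list of this size is not told apart from the rest by such a count. Tm7sf2, a sterol reductase, rose by 0.41 (adjusted p = 0.0432, kept in 2 of the 8 fits without 1 sample) as the called member of 19 cholesterol biosynthesis genes, whose median was 0.03. Cpt1a, the enzyme that admits fatty acids to the mitochondrion, fell by 0.58 (adjusted p = 0.0310, kept in 3 of 8) as the called member of 22 lipid genes, and its other probe sets had -0.66 and -0.11. Dnajb1, a cochaperone of HSP70 induced by heat shock, was at 11.31, 11.61, 11.73 and 11.50 at 12 months, against 11.09, 10.92, 10.87 and 10.88 at 6 months. Its rise of 0.60 ± 0.12 (adjusted p = 0.0181, kept in 6 of 8) was the call among 21 genes of heat shock and the unfolded protein response, and both Dnajb1 probe sets rose alike (0.60 and 0.62). Glycolysis (0 of 16, median 0.08, Ldhb at 0.24), oxidative phosphorylation (0 of 21, median 0.00, Uqcrc1 at 0.42), glutamate and potassium homeostasis (0 of 14, median 0.07), and secreted factors and receptors acting on synapses (0 of 19, median -0.04, Dag1 at 0.25) had none. The same held for metal and iron handling (0 of 12, median -0.07, Slc39a14 at 0.42), extracellular matrix (0 of 18, median 0.00, Nid1 at -0.62) and autophagy and lysosome genes (0 of 20, median 0.00, Atg7 at 0.33).

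Cell cycle and proliferation genes had a median of -0.30 over 13 genes, 11 of them below 0 and 0 called, with Rrm2, a subunit of the enzyme that makes deoxynucleotides, at -0.50. Cell senescence genes had 0 of 8 called and a median of -0.08. Its lamin gene Lmnb1 was at -0.47 (adjusted p = 0.0528), and Cdkn1a, the p21 inhibitor of cyclin-dependent kinases, which was picked after its value was seen, had 9.73, 9.27, 9.20 and 8.37 at 12 months, against 8.49, 7.86, 7.46 and 8.48 at 6 months. Cdkn1a overlapped between the ages and missed the threshold at 1.07 (adjusted p = 0.0560). Of the sex-linked genes, Uty of the Y chromosome fell by 0.90 (adjusted p = 0.0143, kept in 6 of 8). Its other probe sets had -0.18, 0.08 and -0.70, so the fall depends on the probe set. Eif2s3y, also Y-linked and named after its value was seen, was high at both ages (11.20 and 11.03 for 12 and 6 months). Xist lay below the level limit at both ages. Of the 30 lists, 21 had no called member.

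**Figure D3:**
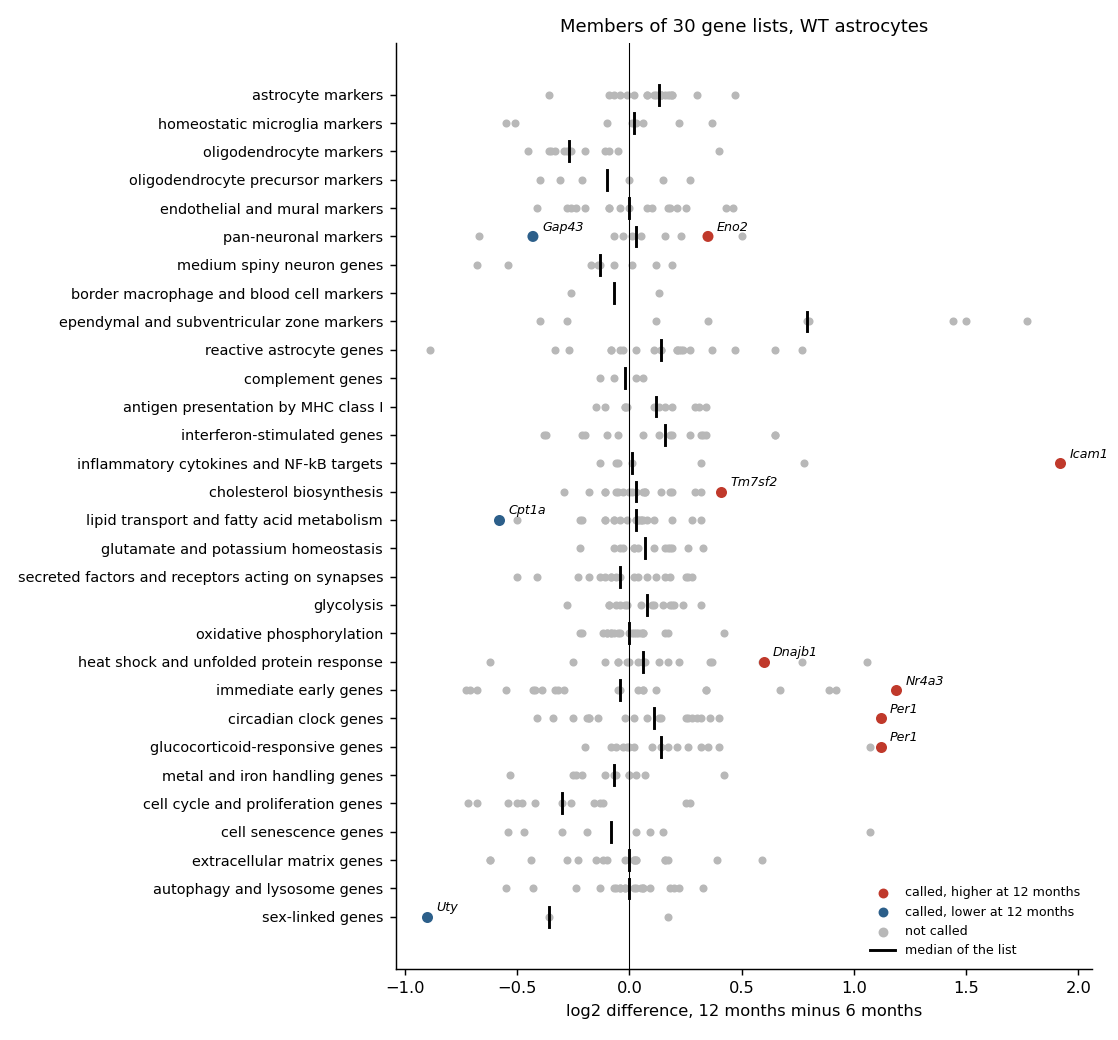
Log2 differences (x axis, 12 months minus 6 months) of the tested members of 30 gene lists in WT astrocytes, 1 list per line, with called genes in red (higher) or blue (lower) and a bar at the list's median. In 21 lists no gene is called, and the ependymal list has the median farthest from 0, at 0.79.

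Part of the array carries no gene symbol, and it moved more than the named genes did. Of 3532 probe sets without a symbol, 513 (14.5%) were called in WT astrocytes, 433 higher and 80 lower, with a median difference of 0.26. The mean of all of them was 7.65 ± 0.10 (7.56 to 7.77) at 12 months and 7.35 ± 0.24 (7.10 to 7.67) at 6 months. In the same fit zQ175 astrocytes had 21 (0.595%) called, with a median difference of 0.14, in the same direction. Their mean was 7.55 ± 0.12 at 12 months and 7.40 ± 0.13 at 6 months. In the fit of the 3 WT fractions, described further on, WT microglia had 78 of 3404 (2.29%) and the WT negative fraction 1 (0.0294%). Their median differences were 0.05 and -0.10. That fit called 36 named genes in WT astrocytes in place of 494, and its count of probe sets without a symbol was not taken for WT astrocytes. The shares of these fits are thus not on a like scale, and differences between shares were not tested. With the mean of these probe sets as a covariate, 12 named genes were called in WT astrocytes. Among named genes, those on chromosome X were lower more often, at 30 of 383 (7.83%), than the 3.0% of all genes. Those on chromosome 13 had 28 of 450 (6.22%). Both are named because their shares were the highest, and the other chromosomes counted had 1.46% to 4.91%. Genes whose symbols start with Zfp, mostly zinc finger repressors, had 17 of 303 (5.61%) lower and 3 (0.990%) higher. Long noncoding RNAs had 10 of 426 (2.35%) higher and 15 (3.52%) lower. Over all genes the shares were 0.985% higher and 3.0% lower. These shares are counts with no test. The other probe sets of called genes had the same sign in 95 of 154 cases for genes called higher (61.7%) and 217 of 313 for genes called lower (69.3%), against 60.5% over all genes tested.

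The younger WT astrocytes place the change among 4 ages, but the younger samples differ in more than age. The mice of 6 and 12 weeks are controls of the R6/2 line, and the female-specific Xist averaged 10.64 (4.84 to 12.36) at 6 weeks and 12.15 (11.53 to 12.72) at 12 weeks, against 4.61 at 6 months and 5.01 at 12 months. Added poly-A controls read 11.25 at 6 weeks, 3.02 at 12 weeks, 11.03 at 6 months and 10.73 at 12 months. Age, line, sex and array handling cannot be told apart over these 4 groups. For 99 of the 122 genes called higher (81.1%) the 6-month mean was the lowest of the 4 ages, against 58.2% of all genes with a higher mean at 12 months. For 319 of the 372 genes called lower (85.8%) the 6-month mean was the highest of the 4, against 54.2%. The calls rest on the same 6-month samples, so these counts describe and do not test. A change in 1 direction through all 4 ages was found in 5 genes called higher (4.1%) and 17 called lower (4.57%), against 10.7% and 9.99% of all genes.

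Ankrd11 showed the common pattern, with means of 10.19, 10.60, 8.82 and 10 at 6 weeks, 12 weeks, 6 months and 12 months. Rgs7bp was alike, at 8.89, 8.81, 7.55 and 8.52 over the same ages, and Mettl15 was its mirror image, at 9.67, 9.63, 10.58 and 9.92. Gpx8 fell at each step, at 11.13, 10.42, 9.69 and 8.55. Nr4a3 climbed at each step, at 7.26, 7.71, 8.90 and 10.09, and so did Dnajb1, at 10.40, 10.78, 10.94 and 11.54. The hybridisation controls were at 12.10 ± 0.07 at 6 weeks, 12.01 ± 0.02 at 12 weeks (SD, n = 5 each), 11.62 ± 0.07 at 6 months and 12.07 ± 0.07 at 12 months (SD, n = 4 each), so they too were lowest at 6 months.

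**Figure D4:**
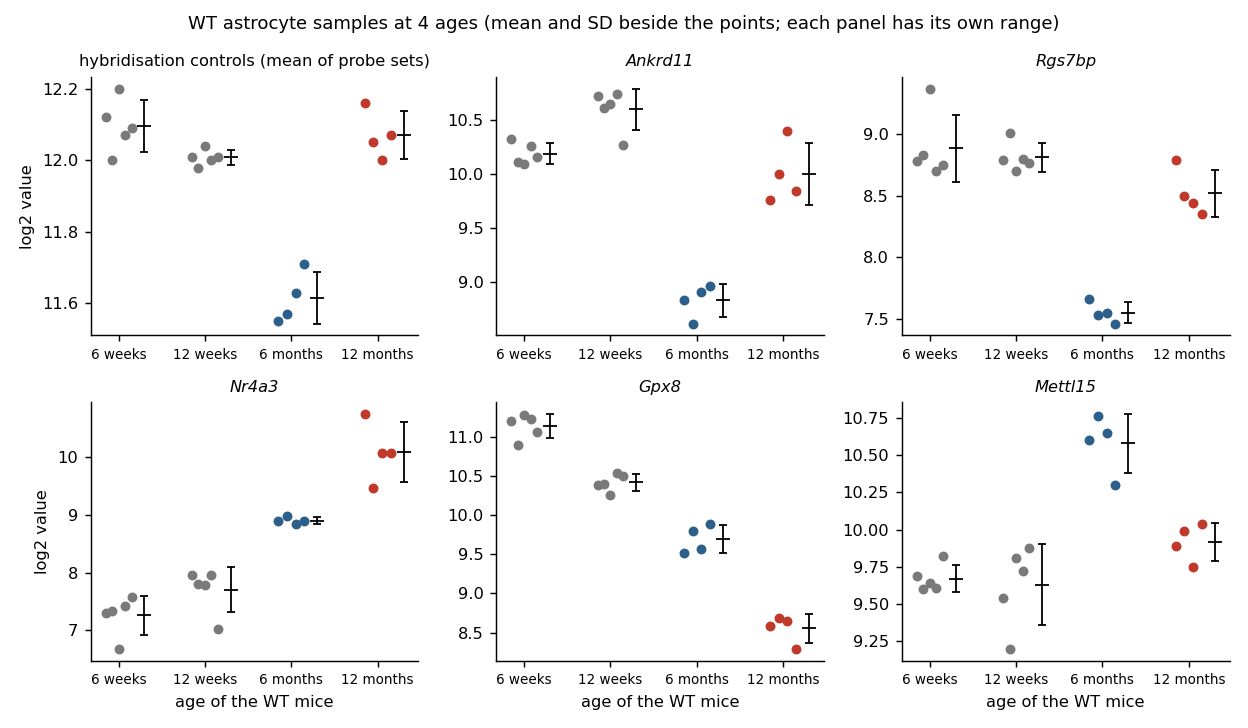
Log2 values of the hybridisation controls and 5 genes in WT astrocyte samples at 6 weeks, 12 weeks, 6 months and 12 months, with the mean and SD beside the points and a separate y axis in each panel. The hybridisation controls, Ankrd11 and Rgs7bp are lowest at 6 months, Mettl15 is highest there, and Nr4a3 and Gpx8 move 1 way over the 4 ages.

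zQ175 astrocytes of the same ages share no sample with the WT ones, and their age change was tested in the same fit. It had 611 called genes (4.94%), 137 higher (1.11%) and 474 lower (3.83%). Of the genes called higher in WT, 48 were also called higher in zQ175, which is 39.3% of the WT genes and 35% of the zQ175 genes. Of those called lower, 165 were called lower in both, 44.4% of the WT genes and 34.8% of the zQ175 genes, and 0 were called in opposite directions. A gene's spread is estimated once for both genotypes, and that favours shared calls. The sign was shared by 116 of the 122 genes called higher in WT and 362 of the 372 called lower, and the medians of these genes were 0.37 and -0.39 in zQ175. Over all genes tested the sign was shared by 74.8% of those with a higher mean at 12 months in WT and 68.0% of those with a lower one.

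Ankrd11 (1.21 in zQ175, 1.18 in WT), Gpx8 (-0.94 and -1.14), Sp3 (-0.85 and -0.93) and Ube3a (0.54 and 0.53) had like differences in both genotypes. Icam1 (0.73 in zQ175, 1.92 in WT), Per1 (0.28 and 1.12), Nr4a3 (0.26 and 1.19), Dnajb1 (0.02 and 0.60) and C130075A20Rik (0.17 and 1.80) were not called in zQ175, but the difference between genotypes was not called for any of them. That difference, tested in its own right for 12380 genes, was called for 1 (0.00808%), and 562 had an unadjusted p below 0.05. The gene was Fam160b2, for which zQ175 astrocytes had 9.03, 9.18, 8.80 and 9.13 at 12 months, against 10.50, 10.68, 10.82 and 10.47 at 6 months. WT astrocytes had 9.89, 9.72, 9.81 and 9.85 at 12 months, against 9.75, 9.95, 10.01 and 9.72 at 6 months. Fam160b2, a protein linked to the traffic of organelles on microtubules, thus fell with age in zQ175 (-1.58) and had -0.04 in WT, a difference of -1.54 ± 0.15 (adjusted p = 0.000412). The next genes by p, Gng3 (1.13), Cdh6 (0.92), Il17b (0.89), Paqr8 (-0.44) and Insm1 (0.95), all had an adjusted p of 0.512.

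**Figure D5:**
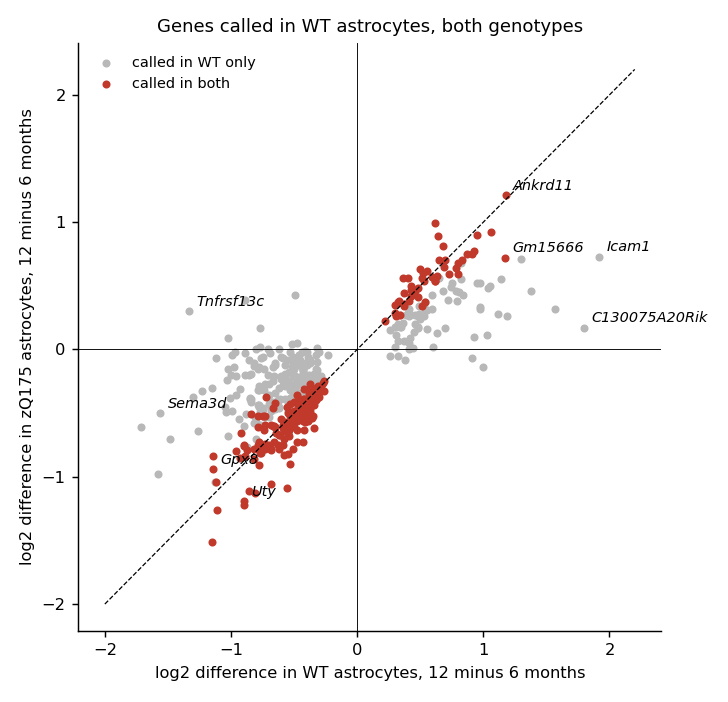
Log2 differences (12 months minus 6 months) of the 494 genes called in WT astrocytes, with WT on the x axis, zQ175 on the y axis and a dashed line of equality. Genes called in both genotypes are red, 48 higher and 165 lower, and the sign is shared by 116 of 122 genes called higher in WT and 362 of 372 called lower.

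Whether a change belonged to astrocytes was asked against the other sorted cells, in 1 fit of the 3 WT fractions. That fit called 36 of 12573 genes in WT astrocytes (0.286%), 788 in WT microglia (6.27%) and 78 in the WT negative fraction (0.620%). The spread in it comes from all 3 fractions, so these counts are not those of the astrocyte fit. Of the genes called in the astrocyte fit and tested here, microglia were called the same way for 37 of 119 higher and 119 of 357 lower genes, and in the opposite way for 1 and 2. Over all genes tested, microglia had 1.37% higher and 4.90% lower and the negative fraction 0.382% higher and 0.239% lower. The negative fraction was called the same way for 11 of 119 and 8 of 357, with 0 opposite. Signs were shared with microglia for 98 and 335 of these genes and with the negative fraction for 110 and 338. Over all genes tested the shares were 69.8% and 68.1% with microglia and 71.6% and 65.4% with the negative fraction.

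Many of the genes described above also changed in microglia. Ankrd11 rose by 1.30 (adjusted p = 0.00239), Ccar1 by 0.76 (adjusted p = 0.00182), Ifngr2 by 0.86 (adjusted p = 0.000453) and Ube3a by 0.53 (adjusted p = 0.0180) in WT microglia. Septin10 (-0.84, adjusted p = 0.00997), Mettl15 (-1.0, adjusted p = 0.00186), Sp3 (-0.80, adjusted p = 0.0223), Pak3 (-1.39, adjusted p = 0.0118) and Uty (-0.79, adjusted p = 0.0292) fell there. Pak3 was low in microglia, with 3.55, 3.52, 4.61 and 5.38 at 12 months, against 4.87, 6.26, 5.62 and 5.87 at 6 months. Its ages overlapped and all its 12-month values lay under 5.44, the level limit of the astrocyte fit, so its fall says little about microglia. Ifngr2 (0.76, adjusted p = 0.0104) and Per1 (0.92, adjusted p = 0.0415) also rose in the negative fraction. The hybridisation controls were higher at 12 months in these fractions too, at 12.20 and 11.70 for 12 and 6 months in microglia and 11.90 and 11.49 in the negative fraction.

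A difference between the age change of WT astrocytes and that of WT microglia was called for 3 genes (0.0239%), 2 of them above 0 (0.0159%) and 1 below (0.00795%), with 777 at an unadjusted p below 0.05. Gm15666 rose in astrocytes and had 0.00 in microglia, where it read 5.92, 5.44, 5.52 and 5.45 at 12 months, against 5.72, 5.27, 5.78 and 5.58 at 6 months. These microglial values lie around 5.44, the level limit of the astrocyte fit, so 0.00 there does not show that microglia lack the rise. The difference of Gm15666 was 1.18 ± 0.20 (adjusted p = 0.0300), and it was past the threshold in 1 of the 8 fits that left out a WT astrocyte sample. For the other 2 genes microglia had the larger change. Plekhg1 had -0.05 in astrocytes and fell in the microglia samples (-1.88), a difference of 1.83 ± 0.27 (adjusted p = 0.0120). Oligodendrocyte markers were also lower in the microglia samples, with a list mean of 10.17 ± 0.75 at 12 months and 11.11 ± 0.14 at 6 months (SD, n = 4 each). Whether the fall of Plekhg1 belongs to microglia or to transcripts of other cells in these samples was not tested. Dennd1c, a Rab exchange factor, was at 5.07 ± 0.14 and 5.85 ± 0.20 in astrocytes of 12 and 6 months and rose by 1.33 in microglia, a difference of -2.11 ± 0.32 (adjusted p = 0.0120). Its 12-month astrocyte mean lies under the astrocyte fit's level limit of 5.44, so the astrocyte part of this difference gives a direction more than a size. Cobll1 (1.05), Sh3rf1 (1.22) and Kcnj9 (-1.14) came next and were not called (adjusted p = 0.0570 each).

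No difference between WT astrocytes and the WT negative fraction passed limma's adjusted threshold (0 of 12573 genes, 477 at an unadjusted p below 0.05). The 6 genes of smallest p were C130075A20Rik (2.07), Gm15666 (0.97) and Bik (-0.88), all at an adjusted p of 0.360, and Dapl1 (1.09), Camk1d (1.12) and Egln3 (0.88), at 0.383.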

How the data were processed

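Log2 expression values of 45101 probe sets were deposited by the authors. Per the submitters' processing notes the tools were affy, RMA and limma, with versions, and which arrays RMA took together, not given in the sources used here. RMA evens out the distributions of arrays (over the 8 arrays no quantile had an SD above 0.069), so a shift of all genes cannot be measured in these values. A small step in the array medians remained, from 6.28 to 6.40 at 6 months and from 6.41 to 6.48 at 12 months. Its part in the calls was not tested. The values were used as deposited.

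A gene was named where the platform annotation gave 1 symbol (34958 probe sets), while 932 had several and 9211 none, and 34754 were matched by gene identifier to RefSeq (GRCm38.p6), which changed 0 symbols. The probe set of highest mean over all 111 arrays stood for a gene. A gene was tested where its mean reached the 40th percentile of probe set means, which is 5.44 in the astrocyte fit.

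For the age change, limma 3.58.1 (R 4.3.3, two-sided moderated test) was fitted to group means of the 4 astrocyte groups of 12 and 6 months, and p-values were adjusted over the whole table by Benjamini-Hochberg. The difference between genotypes was a contrast of that fit, and differences between fractions came from a fit of the 6 WT groups. The steps were tested on simulated data. Single measures over samples were compared by exact permutation. Array control probe sets and probe sets without a symbol were analysed apart.

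The genes named were the 12 of smallest p and the 8 of largest difference in each direction among called genes, up to 4 called members of each of 30 gene lists or else the member of smallest p, the markers that check the sort, and the 6 genes of smallest p in each difference of age changes. Exceptions are stated where they occur. The samples compared, the lists and the tests were chosen with earlier results of these data known. Because 42 list members had no probe set of 1 symbol, they were not analysed here.

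Alternatives changed the filter, the probe set rule, the normalization, the variance model, the samples, the covariates and the replicate block, and those with the hybridisation controls, the probe sets without a symbol or the ependymal markers as a covariate were chosen after seeing the data.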

Additional observations from a re-analysis of the deposited data

Results flagged for a closer look

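Among 162 groups of 4 values looked at in the WT astrocyte samples, 6 held a single sample far from the other 3, and chance gives about 1 in 20. At 12 months the highest value of Asns was 6.32 (others 5.59 to 5.66), that of Cd3e was 6.63 (others 6.24 to 6.28), that of the microglia marker mean was 5.91 (others 5.55 to 5.57), and that of the 3′ minus 5′ signal of Gapdh was 1.11 (others 0.70 to 0.75). The lowest value of P2ry12 at 12 months was 6.73 (others 7.55 to 7.69), and the lowest of Arhgef3 at 6 months was 6.48 (others 6.57 to 6.58). Arhgef3 kept its call in all 8 fits without 1 sample.

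In 4 genes the age change differed between groups by limma's test of the difference. Fam160b2 differed by -1.54 between zQ175 and WT astrocytes. Between WT astrocytes and WT microglia the differences were -2.11 for Dennd1c, 1.18 for Gm15666 and 1.83 for Plekhg1.

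Probe sets outside the comparison of named genes also passed the test in WT astrocytes, 513 with no gene symbol and 44 with several, of which 12 were higher and 32 lower at 12 months. The 44 are 7.30% of 603 tested.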

How the results depend on the processing

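No paired analysis was possible because the 12-month and 6-month samples share no replicate numbers. The 494 called genes of the WT astrocyte age change became 1071 with each array centred on its median (87 higher and 984 lower, where the median of all genes was -0.139 in place of -0.047), 1938 with array weights and 825 with all 8 astrocyte groups of the series in the fit. They became 1 with only the 8 WT samples, 1 with the mean of the Y-linked genes as a covariate, 9 with that of the oligodendrocyte markers, 0 with that of the hybridisation controls, 12 with that of the probe sets without a symbol and 215 with that of the ependymal markers. Leaving out 1 sample gave 70 to 1016. The count stayed within 1.5 times under the other alternatives. These were no filter (334), a filter at the 60th percentile (648), the mean of a gene's probe sets (611), quantile normalization (458) and eBayes with trend and robust (664). Covariates of endothelial (464), microglial (364) or neuronal markers (377) were the others. A like count did not mean the same genes. Of the 494, only 266 stayed called with the mean of a gene's probe sets, which called 226 higher and 385 lower. No filter kept 300 of the 494, and the rest of these alternatives kept 350 to 452. For zQ175 astrocytes, with 611, the counts were 942 with median centring, 2061 with array weights, 236 to 855 without 1 sample, and 2, 252, 257, 231, 0 and 317 with the Y-linked, endothelial, microglial, neuronal, hybridisation and ependymal covariates. The Y-linked and hybridisation covariates did not overlap between the ages, which leaves little age change to test in those fits. The cause of these shifts was not tested.

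The 1 gene whose age change differed between zQ175 and WT became 3 with no filter and 1 to 2 without 1 sample. The 3 genes that differed between WT astrocytes and microglia became 1 with the stricter filter, 9 with quantile normalization, 134 with array weights and 2 to 4 without 1 sample. The 0 genes that differed from the negative fraction became 1 with array weights and 0 to 1 without 1 sample. Replicate numbers are shared between fractions, but same-numbered samples deviated together only in part (r above 0.1 in 13 of 16 pairs, from -0.17 to 0.45), with the own number the best match in 12 of 16, and the labels do not tie a number to a pool, so pairing was not established. The replicate block as a random term gave 20 genes for microglia, and as a fixed term 4 for microglia and 1 for the negative fraction.

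Over 42 named called genes and 25 settings, 738 of 1033 values kept direction and call, 294 lost the call and 1 turned sign, and 0 genes kept the call in every setting. With the hybridisation covariate the differences were 0.05 for Cpt1a, -0.12 for Cacng4, -0.20 for Psme1, -0.03 for Dag1 and -0.20 for Slc39a14. This covariate does not overlap between the ages, so estimates with it are imprecise. Cd3e, at -0.26, had -0.46 to 0.10 without 1 sample (6-month samples 22 and 23), -0.82 with the hybridisation covariate and 0.11 with the covariate of probe sets without a symbol, where Clu was 0.00. The Plekhg1 difference was 1.22 (adjusted p = 0.116 in limma) with the mean of the probe sets of a gene.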
